A study of Rattus norvegicus with 27 samples.

Results

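The 8 genes described here mark excitatory neurons of the deep layers of the rat neocortex: Fezf2, Bcl11b, Tle4, Foxp2, Tbr1, Etv1, Syt6 and Crym. They were chosen by symbol, as 8 rows of the 36865 in a table of raw read counts, and all 8 were among the 11730 genes kept for testing (mean count 10 or more). The counts came from RNA sequencing of the bilateral medial prefrontal cortex (mPFC: infralimbic, prelimbic and anterior cingulate areas, homogenised together) of 27 adult male Wistar rats, 1 library per rat. The rats form a single group with no untreated or genetic control, so every comparison here is across rats. The male Wistar rats from which these 27 were selected came from 2 cohorts, and which library belongs to which is not given in the sources used here. All 27 were outbred animals taken from the home cage at rest, 2 weeks after their last behavioural test. They had been selected to cover the range of a composite anxiety score that was not used here. The labels also give learned helplessness as the treatment, while the study's methods describe repeated elevated plus-maze, light-dark and open field tests, and the labels and methods differ on the thickness and position of the slice and on the library kit.

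The deep layers of the neocortex hold the neurons that send its output to the brainstem, spinal cord, striatum and thalamus. Layer 5 neurons that project below the cortex depend on Fezf2 and its downstream partner Bcl11b (Ctip2), while layer 6 neurons that project to the thalamus express Tbr1, Tle4 and Foxp2. In adult tissue the mRNA of these genes is widely used to tell layers apart, although Bcl11b and Foxp2 are also made in quantity by striatal projection neurons and Bcl11b by some cortical interneurons. In bulk tissue, fewer cells of a type and less RNA per cell cannot be told apart.

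The start-site sequences of 4 genes are shown because these genes form the pairs that followed each other across rats and have an entry in the RefSeq promoter table; each runs over 300 bases, from 250 before to 50 after the start, 5′ to 3′ along the gene's strand on GRCr8. Capitals mark matches to 3 motifs, searched on both strands. The T-box core was spelled AGGTGTG. For the CCAAT box the letters in its name were searched. The E-box searched was CAGCTG.
Fezf2, chr15:15203943-15204242, plus strand: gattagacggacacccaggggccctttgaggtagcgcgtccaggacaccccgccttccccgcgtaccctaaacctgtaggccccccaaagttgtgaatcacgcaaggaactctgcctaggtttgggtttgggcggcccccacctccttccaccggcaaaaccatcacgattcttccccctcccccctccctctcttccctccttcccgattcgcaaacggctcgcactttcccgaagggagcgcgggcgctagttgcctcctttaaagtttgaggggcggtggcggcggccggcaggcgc
Tle4, chr1:221222777-221223076, minus strand: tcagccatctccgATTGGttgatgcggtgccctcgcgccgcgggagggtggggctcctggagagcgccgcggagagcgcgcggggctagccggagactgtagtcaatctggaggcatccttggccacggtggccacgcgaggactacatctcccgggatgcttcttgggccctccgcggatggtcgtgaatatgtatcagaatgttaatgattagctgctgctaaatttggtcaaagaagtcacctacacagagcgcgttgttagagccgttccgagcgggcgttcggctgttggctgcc
Tbr1, chr3:66759553-66759852, plus strand: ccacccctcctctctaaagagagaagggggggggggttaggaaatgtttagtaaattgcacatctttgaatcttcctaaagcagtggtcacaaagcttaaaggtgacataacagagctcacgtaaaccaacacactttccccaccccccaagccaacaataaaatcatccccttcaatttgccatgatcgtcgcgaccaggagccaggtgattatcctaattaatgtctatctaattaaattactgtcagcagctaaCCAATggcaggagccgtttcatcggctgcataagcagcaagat
Syt6, chr2:193781226-193781525, plus strand: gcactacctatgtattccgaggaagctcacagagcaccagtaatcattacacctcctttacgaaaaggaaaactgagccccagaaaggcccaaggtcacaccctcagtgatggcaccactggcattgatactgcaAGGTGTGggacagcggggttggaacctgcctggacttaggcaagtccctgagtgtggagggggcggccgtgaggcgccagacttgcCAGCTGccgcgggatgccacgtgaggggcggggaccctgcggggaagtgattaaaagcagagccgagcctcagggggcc
The table held 5 of the 8 genes, these and Etv1, and Bcl11b, Foxp2 and Crym are named only. The T-box core, the letters bound by T-box factors such as the product of Tbr1, occurred in 5.61% of 33469 promoters of that length and, among the 5, only in Syt6, where it begins at position -115 from the start site. The CCAAT box (37.5% of promoters) was present in Tle4 and Tbr1, and the E-box (15.1%) in Etv1 and Syt6. The windows of Fezf2, Tle4 and Syt6 held 63.3%, 60.7% and 59.7% G and C, and that of Tbr1 45.3%, against a median of 51.7% over all promoters. These matches describe letters only.

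Depth and tissue content varied between libraries. Totals ran from 4907255 to 12771309 counts, and the 16 libraries whose names carry a number up to 31 (4907255 to 8568317) were all shallower than the 11 numbered from 32 (9404220 to 12771309). Library 3 stood apart from the rest, with a median rank correlation of 0.964 with the other libraries across genes, against 0.983 for the next, library 19. It was lowest of 27 for 4 of 5 pan-excitatory and 4 of 7 upper-layer marker genes as well as 3 of 10 other deep-layer and 3 of 6 interneuron genes, its other deep-layer score of -1.63 was the lowest of 27 although the summed level of that list was 4141 against a median of 4033, and it was highest for 7 of 8 oligodendrocyte genes, whose summed level was 65181 normalized counts against a median of 29531. Library 51 was highest of 27 for 5 of 9 striatal genes. Slc17a7, the vesicular glutamate transporter of cortical excitatory neurons, lay between 7479 and 13608 normalized counts in all 27 libraries. Values without library 3 or library 51 stand beside a number of the results, and were not printed for every gene.

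Each of the 8 genes was detected in every library. Values are normalized counts, that is, counts divided by a size factor for the library. They are not scaled to transcript length and do not rank the genes against each other. All 8 varied between rats beyond counting error by a chi-square test of dispersion against counting error (adjusted p from 7e-230 for Crym to 1.6e-22 for Syt6), as did 89.8% of the 11730 genes tested, so the call does not set them apart. What differed among them was the size of the spread, given here as the biological coefficient of variation (BCV), the spread left after counting error, whose median over all tested genes was 11.6%.

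Among the layer 5 genes, Fezf2, the zinc-finger factor that specifies subcerebral projection neurons, had 695 normalized counts in the lowest rat, 779 in the median and 1018 in the highest (813 ± 85.5, SD, n = 27). Bcl11b, the zinc-finger factor that acts with it in corticospinal neurons, had 688, 894 and 1112 (910 ± 127). Their spread was modest, with a BCV of 10.2% for Fezf2 and 13.6% for Bcl11b, and library 54 was highest for both. Etv1 (Er81), an ETS factor of layer 5 neurons including those that project within the telencephalon, had 1141 in the lowest rat, 1702 in the median and 1926 in the highest (1655 ± 187, BCV 11.6%). Crym, which encodes the thyroid hormone-binding protein mu-crystallin and is enriched in deep-layer pyramidal neurons, had 2971, 3654 and 4334 (3684 ± 402, BCV 10.9%). Library 51 was the lowest of 27 for both Etv1 and Crym. For Etv1 its 1141 and the 1216 of library 26 lay below the lower quartile of 1577.

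Of the layer 6 genes, Tle4, a Groucho-family corepressor of corticothalamic neurons, had 565 normalized counts in the lowest rat, 807 in the median and 986 in the highest (795 ± 106, BCV 12.8%). Foxp2, a forkhead factor of the same neurons, had 111, 220 and 317 (213 ± 54.6, BCV 24.7%). Both were lowest in library 32, and the highest rat exceeded the lowest 1.74-fold for Tle4 and 2.86-fold for Foxp2. Tbr1, the T-box factor that specifies layer 6 identity, had 260, 505 and 717 (499 ± 94.2, BCV 18.6%). Syt6, a synaptotagmin enriched in layer 6, had 16.8, 60.3 and 97.6 (57.5 ± 20, BCV 32.6%), from raw counts between 11 and 108. Library 3 was lowest for both Tbr1 and Syt6, and libraries 19 (Tbr1, 325) and 18 (Syt6, 22.1) came next. The Syt6 BCV was above that of 95.2% of tested genes and the Foxp2 BCV above that of 89.8%, whereas 38.6% lay below Fezf2. Counting error made up 14.8% of the Syt6 variance and 11.4% or less of that of each of the other 7 genes.

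**Figure D1:**
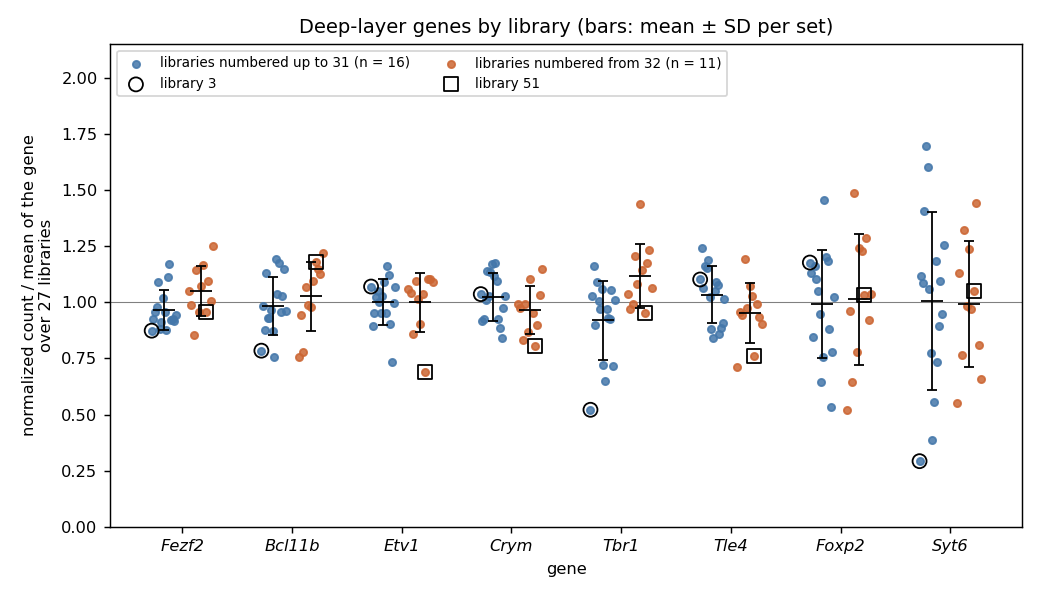
Normalized count of each gene in each of the 27 libraries, divided by the gene's mean over all libraries (vertical axis, ratio), with libraries numbered up to 31 in blue (n = 16) and from 32 in orange (n = 11); bars are the mean ± SD of each set, the circle is library 3 and the square library 51. Syt6 and Foxp2 spread most widely, library 3 is lowest for Tbr1 and Syt6, and library 51 is lowest for Etv1 and Crym.

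The deeper libraries differed from the shallower ones in 1 of the 8 genes. Tbr1 had 459 ± 88.3 normalized counts in the 16 libraries up to 31 (260 to 580) and 557 ± 71.1 in the 11 from 32 (474 to 717), ranges that overlap. It was 0.29 ± 0.09 (SE) higher on the log2 scale in the deeper set (edgeR quasi-likelihood test, adjusted p = 0.0286). In this comparison 18.3% of all genes were called, so 1 of the 8 was no more than the share over all genes. The Tbr1 call stood without library 3 (0.25, adjusted p = 0.0247). Fezf2 had 786 ± 71.6 and 853 ± 91.4 and did not pass (log2 difference 0.13 ± 0.05, adjusted p = 0.101). For the other 6 genes the fitted difference lay between -0.11 for Tle4 and 0.07 for Bcl11b, and the standard error was 0.20 for Syt6, so a sizeable difference of that gene would not have been detectable. What else distinguishes the libraries on either side of that number is not given in the sources used here.

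Whether the 8 genes rose and fell together was asked for all 28 pairs, by Spearman's rho over the 27 rats and by edgeR fits across all genes with the log2 level of 1 gene as the covariate. Most pairs were only weakly related. Spearman's rho was positive in 24 of 28 pairs, with a median of 0.154 and a range of -0.112 to 0.701, and 18 pairs lay under 0.3 in size. By comparison, the median rho of each gene with all tested genes was between -0.0287 and 0.0153. Of the 28 pairs, 6 had an unadjusted permutation p under 0.05, 3 passed the edgeR test in at least 1 direction and 2 in both. Counted by direction these were 5 of 56 fits (8.93%), and over the 8 covariates a mean of 9.07% of all genes was called, so the number of pairs called was at the background share. The sign of rho was the same in the shallower and deeper libraries for 18 of the 28 pairs, and the median rho was 0.0764 in the former and 0.382 in the latter.

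Tle4 and Foxp2 were the closest pair. They had a rho of 0.701 (permutation p = 6e-05) and a Pearson's r of 0.682 (p = 4e-05), and rho was 0.674 in the libraries up to 31 and 0.709 in those from 32. Foxp2 rose by 0.26 ± 0.06 log2 units per SD of Tle4 (adjusted p = 0.00687), where 9.86% of all genes were called and 5.02% rose. In the opposite fit Tle4 rose by 0.14 ± 0.03 per SD of Foxp2 (adjusted p = 0.0374), where 0.188% were called and 0.171% rose. Library 32 was lowest for both genes. Leaving out libraries 32 and 51, the 2 farthest from the Tle4 median, left r at 0.689 and Foxp2 still followed Tle4 (adjusted p = 0.0356), whereas Tle4 no longer followed Foxp2 without libraries 32 and 26, the 2 farthest from the Foxp2 median (0.10, adjusted p = 0.775), where edgeR called 0 genes of all and 518 had an unadjusted p under 0.05. Both calls stood without library 3 (rho 0.707) and without library 51 (rho 0.728).

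Tle4 and Syt6, both layer 6 genes, had a rho of 0.527 (p = 0.00513; r 0.408, p = 0.0337), with 0.518 and 0.718 in the shallower and deeper libraries, but missed the edgeR threshold (adjusted p = 0.0609 for Syt6 on Tle4 and 0.0915 for the reverse). Library 3 went against the relation, with Tle4 at 875, 22nd of 27 from the bottom, and Syt6 at its lowest. Without it the rho was 0.634 and Syt6 followed Tle4 with an adjusted p of 0.0137 (13.2% of all genes called), and Tle4 followed Syt6 with 0.0326 (3.3%). Without library 51 Syt6 also followed Tle4 (adjusted p = 0.0469, and 0.0562 for the reverse). Neither direction passed without the 2 libraries farthest from the covariate's median (adjusted p = 0.148 and 0.0513). The same held with the depth set in the model (0.0762 and 0.0558). Without libraries 3 and 19 Syt6 followed Tle4 (0.00616) and the reverse did not pass (0.0574). Foxp2 and Syt6 had a rho of 0.361 (p = 0.0652), with 0.0588 in the shallower and 0.745 in the deeper libraries, and 0.453 without library 3.

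The relation of Tbr1 with Syt6 depended on library 3, which was lowest for both. Its r was 0.649 (p = 0.00056) and its rho 0.389 (p = 0.0466). Syt6 rose by 0.34 ± 0.09 per SD of Tbr1 (adjusted p = 0.00803, with 27.9% of all genes called) and Tbr1 by 0.18 ± 0.05 per SD of Syt6 (adjusted p = 0.00624, with 20.6% called). Without library 3 the r was 0.474 and the rho 0.316. The changes were then 0.21 and 0.11 per SD (adjusted p = 0.136 and 0.144), and the shares of all genes called were 8.4% and 3.3%. Without libraries 3 and 19, the 2 farthest from the Tbr1 median, r was 0.378. Tbr1 had a rho of 0.0702 with Foxp2 and 0.091 with Tle4, the other layer 6 factors. With Tle4 it was 0.103 in the libraries up to 31 and 0.636 in those from 32. With Foxp2 it was -0.379 and 0.518, and the difference between the sets was not tested.

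Among the layer 5 genes, Fezf2 and Etv1 had a rho of 0.619 (p = 0.0008; r 0.478, p = 0.0111), 0.503 and 0.555 within the sets, and did not pass the edgeR test (adjusted p = 0.123 and 0.114, with 0.588% and 3.95% of genes called). Leaving out libraries 54 and 22, the 2 farthest from the Fezf2 median, left r at 0.425. Fezf2 and its partner Bcl11b had a rho of 0.343 (p = 0.0793), with 0.0676 in the shallower and 0.4 in the deeper libraries. Fezf2 and Tbr1 had a rho of 0.544 (p = 0.00376), and Fezf2 followed Tbr1 by 0.08 ± 0.03 per SD (adjusted p = 0.0248). The change was 0.07 without library 3 and did not pass (adjusted p = 0.111), was 0.06 without libraries 3 and 19, the 2 farthest from the Tbr1 median (adjusted p = 0.324), and did not pass with the depth set added to the model (adjusted p = 0.128). The r without the 2 libraries farthest from the Fezf2 median was 0.579.

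Bcl11b and Foxp2 had a rho of 0.511 (p = 0.0073; r 0.524, p = 0.00523), 0.447 and 0.509 within the sets, and did not pass the edgeR test (adjusted p = 0.36 and 0.194, where 0.0597% and 0.188% of genes were called). Leaving out libraries 18 and 32, the 2 farthest from the Bcl11b median, gave an r of 0.385. Etv1 and Crym, both lowest in library 51, had a rho of 0.369 (p = 0.0593) and an r of 0.543 (p = 0.00252), with adjusted p = 0.0641 and 0.0543. With the depth set in the model Crym followed Etv1 (adjusted p = 0.0428, and 0.0501 for the reverse), and without libraries 3 and 19 both passed (0.0326 and 0.0302). Without library 51 their rho was 0.294 and the adjusted p 0.27 and 0.235. Crym was related to none of the others beyond a rho of 0.369, and no other gene of the 8 passed the edgeR test on Crym, on Bcl11b, on Etv1 or on Fezf2. By unadjusted p under 0.05 the counts in those 4 fits were 1, 2, 2 and 3 of 7, against 26.2%, 6.89%, 19.6% and 16.6% of all genes, and by DESeq2 1, 0, 1 and 0, where DESeq2 called 12.6%, 0.209%, 7.37% and 3.08% of all genes.

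**Figure D2:**
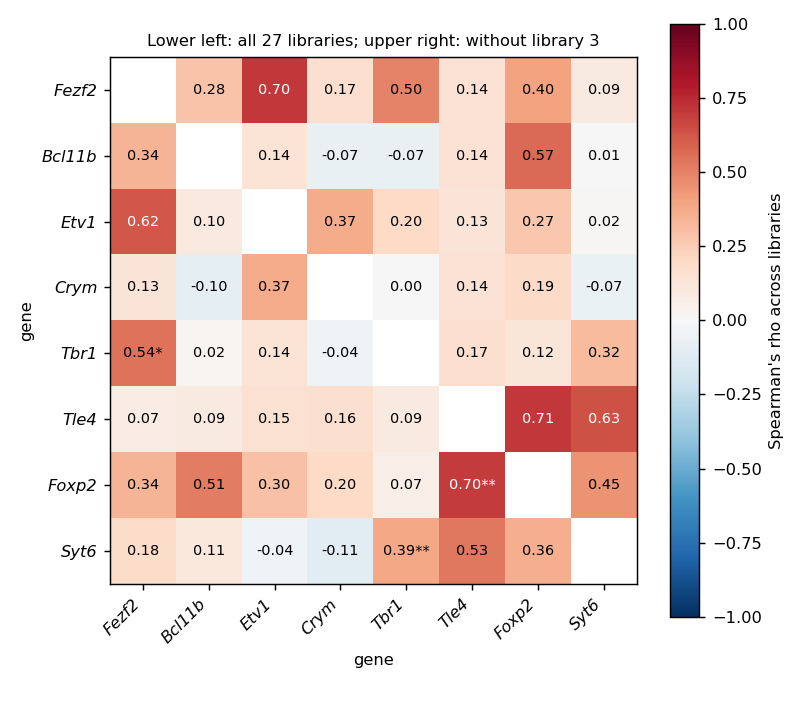
Spearman's rho of log2 normalized counts for the 28 pairs of genes (colour and numbers), over all 27 libraries in the lower left and without library 3 in the upper right; 2 stars mark pairs called in both edgeR fits and 1 star a pair called in 1 fit. Tle4 with Foxp2 (0.70) and Fezf2 with Etv1 (0.62) are the highest over all libraries, and Tle4 with Syt6 moves from 0.53 to 0.63 without library 3.

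**Figure D3:**
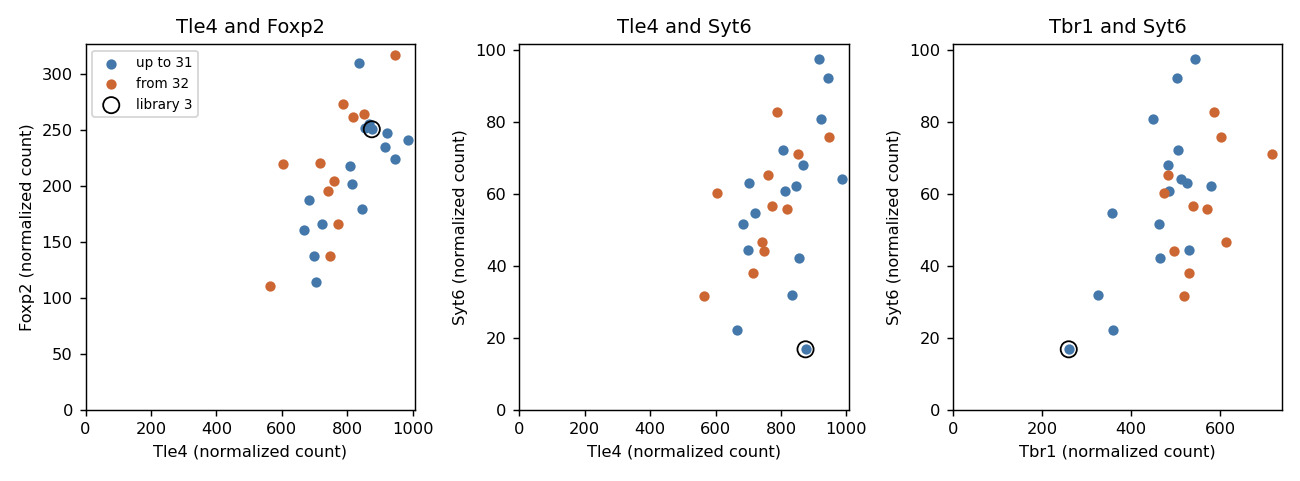
Normalized counts of Tle4 and Foxp2, Tle4 and Syt6, and Tbr1 and Syt6 in each of the 27 libraries, in blue for libraries numbered up to 31 and orange for those from 32, with library 3 circled; both axes start at 0. Library 3 lies within the cloud of Tle4 and Foxp2, away from it for Tle4 and Syt6, and at the low end of both axes for Tbr1 and Syt6.

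Other deep-layer genes were set beside the 8 through a list of 14, of which Hs3st4 and Lratd2 had no matched row, Deptor and Tshz2 were listed at 0 and 10 were tested. Of these 10, Tle4 was followed by 2 and Foxp2 by 1, where 5.02% and 0.171% of all genes rose, and Tbr1 and Syt6 by 1 each, where 14.1% and 12.3% rose. Zfpm2 (Fog2), a zinc-finger cofactor of corticothalamic neurons, had 126, 207 and 280 normalized counts in the lowest, median and highest rat and rose by 0.25 ± 0.03 per SD of Tle4 (adjusted p = 0.00023). Rprm, a cell-cycle gene enriched in layer 6, had 331, 648 and 956 and rose by 0.35 ± 0.05 per SD of Tle4 (adjusted p = 0.00026) and by 0.33 ± 0.05 per SD of Foxp2 (adjusted p = 0.00574). Both genes also followed Tle4 without library 3, without library 51, without the 2 farthest libraries and with the depth set in the model. Grik3, a kainate receptor subunit of deep layers, had 19.9, 139 and 282 and rose with Syt6 (0.46 over all libraries and 0.31, adjusted p = 0.0209, without library 3) and, only with library 3 present, with Tbr1 (0.35 over all libraries and 0.17, adjusted p = 0.257, without it). The change of Rprm with Foxp2 did not pass without libraries 32 and 26 (0.22, adjusted p = 0.466). None of the 10 followed Fezf2, Bcl11b, Etv1 or Crym, where 0.588%, 0.0597%, 3.95% and 9.4% of all genes were called, so that few or none would be called at the background share. DESeq2 called Ntsr1 with Bcl11b and Rprm with Crym. The median change over the 10 genes per SD was 0.07 for Tle4, 0.06 for Syt6, 0.04 for Foxp2, Fezf2, Bcl11b and Etv1, 0.03 for Crym and 0.02 for Tbr1, while the median over all tested genes was below 0.01 in size in each fit.

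The score of the 10 other deep-layer genes, the mean z score of their log2 levels, called 2 of the 8. Foxp2 rose by 0.26 ± 0.05 per SD of the score (adjusted p = 0.0169) and Tle4 by 0.12 ± 0.03 (adjusted p = 0.0404), where 1.27% of all genes were called. The rho with the score was 0.723 for Foxp2 (0.618 and 0.891 within the sets) and 0.622 for Tle4 (0.618 and 0.809). Both calls stood without library 3 (adjusted p = 0.0079 for each, with 1.09% of genes called), and that of Tle4 was lost with no filter on low counts (0.12, adjusted p = 0.052). Fezf2 (0.09 ± 0.02, adjusted p = 0.0623), Bcl11b (0.11 ± 0.03, 0.0942) and Syt6 (0.26 ± 0.09, 0.114) did not pass, and 7 of the 8 had an unadjusted p under 0.05, Crym being the exception, against 18.7% of all genes. Fezf2 passed with the depth set in the model (adjusted p = 0.043, with 3.24% called) and Bcl11b without library 51 (0.13, adjusted p = 0.0446).

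Of 6 genes of layer 6b and the claustrum, which border layer 6, 2 rose with Tle4 and 1 with Foxp2, where 5.02% and 0.171% of all genes rose. Nxph4, a neurexophilin of layer 6b, had 8.6, 29.4 and 67.7 normalized counts and rose by 0.54 ± 0.14 per SD of Tle4 and 0.61 ± 0.13 per SD of Foxp2 (adjusted p = 0.0192 and 0.0374). Cplx3, a complexin of layer 6b, had 53.3, 118 and 214 and rose by 0.46 ± 0.08 per SD of Tle4 (adjusted p = 0.00181). These calls stood without library 3. Without the 2 libraries farthest from the median of the covariate, Cplx3 passed with Tle4 (0.37, adjusted p = 0.0426) and Nxph4 with neither (0.42, 0.144, on Tle4 and 0.49, 0.775, on Foxp2). Of the same list, Ntng2 and Gnb4, markers of the claustrum, rose with Tbr1 (0.22 and 0.17) and Gnb4 with Syt6 (0.20), and none of these passed without library 3, where Ntng2 had 0.18 (adjusted p = 0.0523) and Gnb4 0.07 with Tbr1 and 0.12 with Syt6. The score of the list called none of the 8 genes (0.341% of all genes), with 6 at an unadjusted p under 0.05 (9.93% of all genes) and none by DESeq2 (0.716% of all genes). The rho with it was 0.565 for Foxp2, 0.438 for Tle4 and -0.34 for Crym. With the depth set in the model Tle4 passed on this score (0.13 ± 0.03, adjusted p = 0.0363, with 37 of all genes called). Without libraries 3 and 19 it called 1 of the 8, with 91 of all genes called.

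Oligodendrocyte genes rose with Tle4. Of the 8, which encode myelin proteins or their partners, 7 rose with Tle4, against 5.02% of all genes, and the median change over the 8 was 0.21 per SD. Mal, a membrane protein of myelin, had 659, 1158 and 2519 normalized counts in the lowest, median and highest rat and rose by 0.30 ± 0.06 (adjusted p = 0.00375). The same 7 genes passed without library 3, without library 51, with the depth set in the model and by DESeq2, but 1 of the 8 passed without libraries 32 and 51, the 2 lowest for Tle4, where the median change over the 8 was 0.19. In the fit on the oligodendrocyte score, Tle4 rose by 0.12 ± 0.03 (adjusted p = 0.0277, with 1.91% of all genes called) and its rho was 0.587 (0.685 and 0.709 within the sets). Foxp2 had 0.22 ± 0.07 and rho 0.53 and did not pass (adjusted p = 0.0924, and 0.0315 by DESeq2, which called 2.53% of all genes). The score had rho 0.00916 with Fezf2 (-0.324 and 0.655 within the sets), 0.193 with Tbr1 (-0.194 and 0.609) and 0.273 with Syt6 (0.129 and 0.509). The differences between the sets were not tested. Deep cortical layers adjoin the white matter, and the part of the white matter content of each piece in the Tle4 values was not tested.

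With Tle4, where 5.02% of all genes rose, 3 of 5 astrocyte genes also rose. Among them the water channel gene Aqp4 (2196, 3063 and 4576 normalized counts) rose by 0.15 ± 0.04 (adjusted p = 0.0148). None of the 3 passed without library 51, where Aqp4 changed by 0.13 (adjusted p = 0.0525). With the depth set in the model Aqp4 alone of the 5 passed (adjusted p = 0.0445). Over all libraries 1 of 5 microglial genes passed with Tle4. This was the receptor gene P2ry12 (57.0, 107 and 153), which rose by 0.20 ± 0.04 (adjusted p = 0.00765) and did not pass without libraries 32 and 51 (0.17, adjusted p = 0.0667).

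Of 9 striatal genes 2 rose with Foxp2, where 0.171% of all genes rose. Drd1, the D1 dopamine receptor, had 172, 237 and 351 normalized counts and rose by 0.21 ± 0.04 per SD of Foxp2 (adjusted p = 0.0193), and Ppp1r1b, which encodes DARPP-32, had 956, 1243 and 1647 and rose by 0.13 ± 0.03 (adjusted p = 0.0374). Layer 6 neurons of the cortex also express both. Both passed without library 3 (adjusted p = 0.0122 and 0.0257), but neither did without libraries 32 and 26, the 2 farthest from the Foxp2 median (0.17 and 0.12 per SD, adjusted p = 0.732 and 0.466). The other 7 of the 9 striatal genes did not pass, among them Drd2, Adora2a and Rgs9. The rho of Foxp2 with the striatal score was 0.71 (0.679 and 0.682 within the sets), yet in the fit on the score it did not pass (0.18 ± 0.07, adjusted p = 0.589), as none of the 8 did (0.0597% of all genes called, 2 of the 8 and 6.95% of all genes at an unadjusted p under 0.05, and none by DESeq2, which called 0.188% of all genes). The rank of Foxp2 in library 51, where the striatal score was highest at 3.71, was 14 of 27 from the bottom, with 220 normalized counts. In that library Drd1 was at 351 against a median of 235 in the others, Adora2a at 122 against 57.5 and Rgs9 at 321 against 149, while Ppp1r1b was at 1230 against 1245 and Drd2 at 93.4 against 88.8. Bcl11b was at 1075 there, 25th of 27 from the bottom, and its rho with the striatal score was 0.441 (0.0706 and 0.709 within the sets) and 0.08 ± 0.04 per SD did not pass (adjusted p = 0.661). The part of striatal tissue in the Bcl11b and Foxp2 values was not tested.

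Tbr1 and Syt6 rose with genes outside the deep-layer list, and most of these calls were lost without library 3. Over all libraries 4 of 5 pan-excitatory and 4 of 7 upper-layer genes rose with Tbr1, and 3 and 2 with Syt6, where 14.1% and 12.3% of all genes rose. Slc17a7 (7479, 11304 and 13608 normalized counts) rose by 0.16 per SD of Tbr1 and Neurod2, a basic helix-loop-helix factor of cortical excitatory neurons (540, 716 and 900), by 0.13. These 2 were the pan-excitatory genes that also passed without library 3 (0.11, adjusted p = 0.00571, and 0.10, adjusted p = 0.0178). Neither passed without libraries 3 and 19 (0.08, adjusted p = 0.0698, and 0.09, adjusted p = 0.0972). Without library 3, 0 of 7 upper-layer genes passed with either. Camk2a, the forebrain calmodulin kinase (2535, 5902 and 7689), rose by 0.25 per SD of Syt6 and had 0.16 without library 3 (adjusted p = 0.113). Gad2, an enzyme of GABA synthesis and so a marker of inhibitory neurons (96.3, 339 and 487), rose by 0.37 per SD of Syt6 and by 0.25 without library 3 (adjusted p = 0.0139). With Tbr1, 3 of 6 interneuron genes rose (Gad2, Lhx6 and Slc32a1) and Pvalb fell, and none of the 6 passed without library 3. With the depth set in the model Gad2 alone of the 6 passed with Tbr1 (adjusted p = 0.00016).

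The scores showed the same. Per SD of the pan-excitatory score, Tbr1 rose by 0.26 ± 0.03 (adjusted p = 1.9e-06), Syt6 by 0.35 ± 0.10 (0.00625) and Fezf2 by 0.07 ± 0.03 (0.044), with 32.4% of all genes called. The Fezf2 call was lost with the depth set in the model (0.06, adjusted p = 0.111) and with no filter on low counts (0.07, adjusted p = 0.0581). Without library 3 only Tbr1 passed (0.19 ± 0.03, adjusted p = 0.00053, with 12.9% called), while Fezf2 changed by 0.06 and Syt6 by 0.21. Per SD of the upper-layer score Tbr1 rose by 0.19 ± 0.05 (adjusted p = 0.00314) and Syt6 by 0.28 ± 0.10 (0.0352), with 32.9% of all genes called. Neither gene passed without library 3 (10.9% called). Over all libraries the share of members called was below that of all genes on the upper-layer score. On the pan-excitatory score it was close to that of all genes. The rho with the upper-layer score had opposite signs in the depth sets for Tbr1, with 0.706 in the libraries up to 31 and -0.5 in those from 32, for Fezf2, with 0.285 and -0.845, for Syt6, with 0.568 and -0.355, for Tle4, with 0.124 and -0.509, and for Crym, with 0.0588 and -0.464. It was negative in both sets for Foxp2, at -0.221 and -0.845, for Bcl11b, at -0.00882 and -0.645, and for Etv1, at -0.0529 and -0.464. These differences between the sets were not tested.

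**Figure D4:**
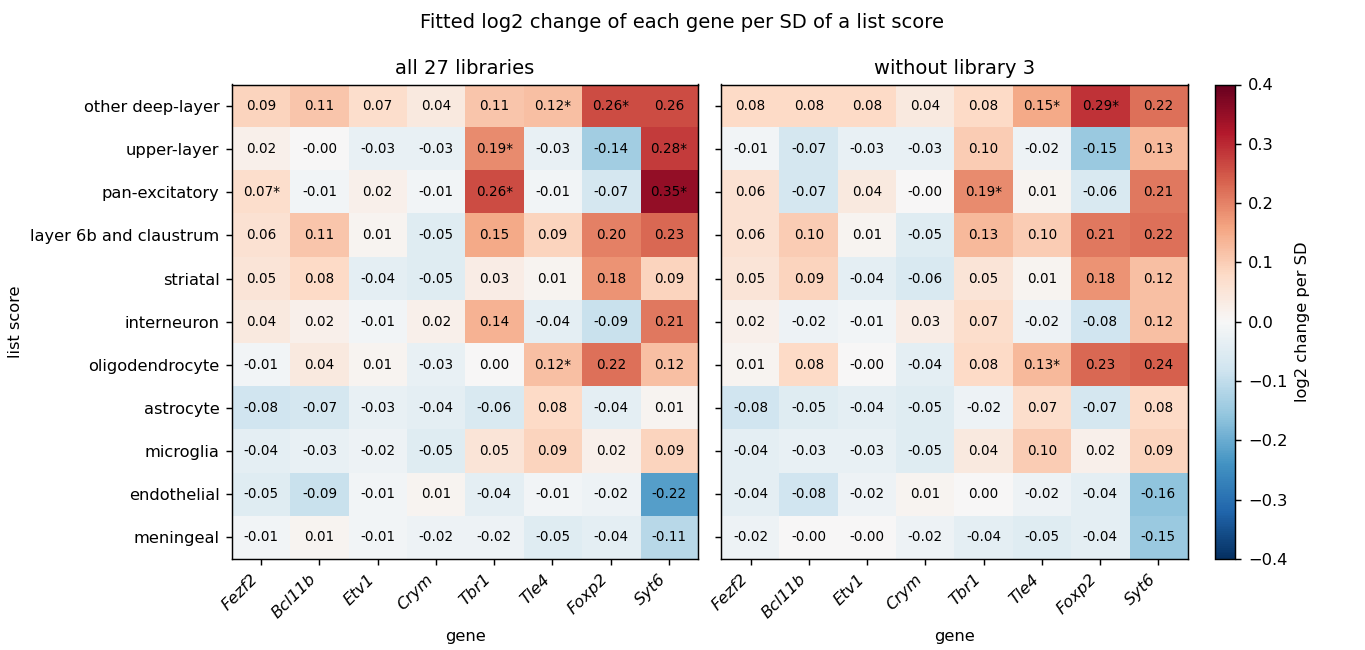
Fitted log2 change of each of the 8 genes (columns) per SD of each list score (rows), from edgeR fits over all 27 libraries on the left and without library 3 on the right; a star marks an adjusted p under 0.05. The other deep-layer and oligodendrocyte rows keep their stars without library 3, whereas the upper-layer row loses both and the pan-excitatory row keeps that of Tbr1.

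Genes of other lists followed Etv1 and Crym. Neurod6, a factor of cortical projection neurons (889, 1150 and 1525 normalized counts), rose by 0.11 ± 0.03 per SD of Etv1 and 0.10 ± 0.03 per SD of Crym (adjusted p = 0.0247 and 0.0406). Calb1, the calcium-binding calbindin and a gene of the upper-layer list (1215, 1658 and 1902), rose by 0.10 with each (adjusted p = 0.0199 and 0.0116). Neither gene passed with Etv1 or Crym without library 51, which was lowest for both. There Neurod6 changed by 0.10 and 0.09, against 0.11 and 0.10 over all libraries, and Calb1 by 0.06 and 0.07. The share of all genes that followed fell from 3.95% to 0.315% for Etv1 and from 9.4% to 3.44% for Crym. With Crym, Vip, an interneuron peptide, rose by 0.13 ± 0.04 (adjusted p = 0.0364). Otof, also of the upper-layer list, and the microglial gene Tmem119 fell with Crym by 0.15 and 0.23 (adjusted p = 0.0301 and 0.0486). Without library 51, Vip (0.10, adjusted p = 0.134) and Otof (-0.11, 0.129) did not pass and Tmem119 did (0.046), while with the depth set in the model Neurod6 (0.0612), Otof (0.073) and Tmem119 (0.0841) did not pass with Crym. Of the list genes, edgeR over all libraries called only Gfap, the astrocyte filament protein (2475, 3299 and 5098), with Fezf2, which fell by 0.19 per SD (adjusted p = 0.0403). Without library 3 its change was -0.17 and did not pass (adjusted p = 0.101), and Neurod2 was called with Fezf2 by DESeq2 and without library 51. With Bcl11b, where edgeR called 0.0597% of all genes, it called no list gene, and DESeq2 called Ntsr1.

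None of the 8 genes passed in the fits on the interneuron, astrocyte, microglia, endothelial or meningeal score, in which 7.83%, 1.62%, 0.384%, 0.239% and 2.38% of all genes were called. Library 3 carried the calls on the interneuron score, which fell from 918 genes to 0 without it (1123 at an unadjusted p under 0.05). At an unadjusted p under 0.05 the counts were 2, 2, 1, 2 and 0 of 8, against 27.2%, 15.6%, 7.06%, 5% and 6.46% of all genes, and by DESeq2 0 in each, where DESeq2 called 10.8%, 2.89%, 0.843%, 0.315% and 2.57% of all genes. The lowest and highest sums of the meningeal genes were 108 and 1727 normalized counts, and the fitted changes of the 8 genes per SD of that score lay between -0.11 and 0.01.

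Of the genes closest to each member by rho over the 27 rats, Zfpm2 alone was on a marker list. For Tle4 they were Abcd3, a peroxisomal fatty acid transporter (0.845), Zfpm2 (0.831) and Spock3, a secreted proteoglycan (0.812), and for Foxp2 they were Prss12, the protease neurotrypsin (0.775), Slain1, a microtubule-binding protein (0.757), and Nxph3, a neurexophilin (0.741). The rho of Zfpm2 with Tle4 was 0.694 in the shallower and 0.973 in the deeper libraries. For Tbr1 the closest were Inpp5k (0.831), Sulf2 (0.799) and Astn2 (0.788), and for Syt6 Kcna1, a potassium channel (0.789), Rims2, a presynaptic scaffold (0.775), and Ddah1 (0.764). For Fezf2 they were Mtpap (0.792), C17h7orf25 (0.77) and Ina, the neurofilament protein internexin (0.747), for Bcl11b Gpr12 (0.778), Zfp667 (0.771) and Krt71 (0.764), and for Etv1 Fbxo11 (0.753), Mindy3 (0.709) and Strbp (0.699). Crym had the highest of all, with Actr10, a dynactin subunit (0.891), Stmn2, a neuronal stathmin (0.854), and Fkbp1a (0.849). These are the top values among 9797 genes and are given as a description without a test. Set among all tested genes, the best-placed other member stood 12th for Foxp2 (Tle4), 46th for Etv1, 48th for Tle4, 67th for Fezf2, 121st for Bcl11b, 306th for Tbr1, 534th for Syt6 and 1665th for Crym.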

How the data were processed

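RNA was sequenced in single reads from the mPFC of 27 male Wistar rats, 1 library each, and the authors deposited raw counts of reads per gene. The submitters' processing notes name Trimmomatic, STAR and HTSeq; genome build, annotation and strandedness are not given in the sources used here, so counts of overlapping genes are uncertain. Gene IDs matched 28157 symbols of the RefSeq list for GRCr8. Genes were listed over several loci in 436 rows.

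Counts were divided by DESeq2 (version 1.42.0) size factors over all genes, and levels are log2(normalized count + 1). Tests covered the 11730 genes whose mean count was 10 or more. edgeR (version 4.0.16) quasi-likelihood fits with TMM used 1 continuous covariate (a member or a list score, scaled to SD) or the depth set, as the study fitted continuous covariates, with Benjamini-Hochberg adjustment over all genes and a threshold of 0.05. Spearman's rho and Pearson's r had two-sided permutation tests (100000 permutations; 28 pairs, permutation p not adjusted). Reads carry no molecular identifiers, so the dispersion test covers counting error only. On simulated data the edgeR fit on Tle4 levels recovered 200 of 200 genes of 11730 that followed by a log2 change of 0.5 per SD, with 11 false calls. That on Tbr1 recovered 200 with 8, DESeq2 on Tbr1 recovered 199 with 20, and the dispersion test 195 of 200 with 5. Recovery of changes smaller than 0.5 per SD, such as the 0.26 of Foxp2 with Tle4, was not tested.

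The members and lists were chosen with earlier results of these data known. Genes were named as members, as at most 2 list genes per list and member with the lowest adjusted p, and as the 3 nearest by rho (mean normalized count 50 or more); list genes without a change were named for contrast after their values were seen. P-values of the edgeR, DESeq2 and permutation tests take the variation between these 27 samples as their reference. Those of the dispersion test take counting error. Alternatives were TMM or total-count scaling, a pseudocount of 0.1, no filter, DESeq2's Wald test, the depth set as a covariate and leaving out the 2 libraries farthest from the median. Leaving out libraries 3, 3 and 19, or 51 was chosen after seeing the data. Of 76 list genes, 73 matched a row and 69 were tested. Some list genes are not reported here by name.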

Additional observations from a re-analysis of the deposited data

How the results depend on the processing

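All 8 genes varied beyond counting under every scaling and filter tried, and Tbr1 remained the member called between the depth sets under each alternative run. Of the pairs called in at least 1 direction (3) and in both (2), 1 and 0 remained without the 2 libraries farthest from the covariate's median, and DESeq2 called 5 pairs in at least 1 direction. The other deep-layer score called 1 member (Foxp2, Tle4 being lost) with no filter on low counts, against 2. The upper-layer score called 0 without library 3 and 0 without libraries 3 and 19, against 2, and the pan-excitatory score 1 and 1, against 3. The layer 6b and claustrum score called 1 (Tle4) with the depth set in the model and 1 without libraries 3 and 19, against 0. The oligodendrocyte score called 2 by DESeq2 and 2 without libraries 3 and 19, against 1. For the 6 pairs with an unadjusted p under 0.05 and the 8 member and score relations called, no direction reversed in the alternatives run; small changes that did not pass, such as that of Foxp2 with the pan-excitatory score (-0.07, and 0.03 without libraries 3 and 19), could change sign. Numbers of all genes following a member moved with the libraries, scaling and test used: for Tle4 from 1157 to 55 without the 2 farthest, 477 with the depth set in the model, 545 without library 51 and 1546 without library 3; for Tbr1 from 3270 to 985 and for Syt6 from 2420 to 387 without library 3; for Etv1 from 463 to 37 and for Crym from 1102 to 403 without library 51; for Fezf2 from 69 to 361 by DESeq2, 143 with TMM levels, 5 with total-count levels and 2 without library 3; and for Foxp2 from 22 to 101 by DESeq2 and 0 without the 2 farthest. The cause was not tested. Syt6, with raw counts of 11 to 108, has the least depth behind its values.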
